A study of Mus musculus with 8 samples.

Results

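Matrix proteases and their inhibitors were followed in the heart ventricle of newborn and 1-week-old mice. The group holds the matrix metalloproteinases (symbols Mmp plus a number), the tissue inhibitors of metalloproteinases (Timp1 to Timp4), the ADAMTS proteases (Adamts plus a number) and the ADAMTS-like proteins (Adamtsl plus a number), chosen by symbol through the RefSeq accession of each array probe. The array named 47 of them among 22909 genes: 19 Mmp, 4 Timp, 19 Adamts and 5 Adamtsl genes. A gene was tested if some group had it above background on each of its arrays, which 34 of the 47 members and 15744 genes in all did. RNA was measured on 8 single-colour oligonucleotide arrays in 4 groups of 2. Wild-type mice (WT) and mice with both copies of Tnnt2 lacking lysine 210 (KI) were each sampled at birth (0 days) and at 1 week. Tnnt2 encodes cardiac troponin T of the thin filament, and mice with this deletion serve as a model of human familial dilated cardiomyopathy. The labels name no other allele, strain or treatment for these mice. The tissue of 3 animals was combined per the labels, and whether a group's arrays hold 1 pool or more is not stated, so errors and p-values measure a spread between arrays that may be technical.

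The deposited value table and the scanner files gave different samples for 3 of the 4 arrays at 1 week, which are called A to D. The value table, followed here, made A and D the WT arrays and B and C the KI arrays. The scanner files made A and B the WT arrays and C and D the KI arrays. Every mean over the 4 arrays of an age is the same in both records. The expression of Tnnt2 does not check the genotype, since a probe outside the deleted codon reads both alleles. All 6 ventricular cardiomyocyte markers were above background, and the share of probes well above background lay between 58.9% and 63.1% on the 8 arrays. The scanner software marked KI birth replicate 1 for evaluation. The ages filled different rows of the single slide, and at each age the genotypes filled different columns, in either record. Age therefore cannot be told apart from row, nor genotype at birth or at 1 week from column. Array D stood apart on the second principal component, which held 11.7% of the variance, and had the lowest 75th percentile of signal, 465 against 621 to 732 on the others. The summed signal of 3 atrial markers was 9.54 times the 75th percentile on array A and 102 to 205 on the other 7 arrays.

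Matrix metalloproteinases are zinc enzymes, secreted or bound to the membrane, that cut collagens, gelatin, elastin and other matrix proteins; most are made as inactive precursors. ADAMTS proteases carry thrombospondin repeats that tether them to the matrix, and they cut proteoglycans such as versican and aggrecan, remove the N-propeptide of fibrillar procollagens or act on fibrillin microfibrils. ADAMTS-like proteins share the repeats but lack the protease domain. TIMPs bind the active site of these enzymes. In the heart after birth, the versican- and hyaluronan-rich fetal matrix gives way to a collagen-rich one.

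In the RefSeq gene table, 3 of the 4 Timp genes lie within a synapsin gene: Timp1 in Syn1, Timp3 in Syn3 and Timp4 in Syn2. Their promoters are shown because all 4 genes passed the test for age, in opposite directions. Those of Mmp3 and Mmp13 stand for the run of Mmp genes on chromosome 9 that gave little signal on these arrays. Each line gives the 250 bases before the RefSeq start (GRCm38.p6), 5′ to 3′ on the gene's strand. Capitals mark matches on either strand to 4 motifs, and no marked match overlaps another. The AP-1 site was read as TGANTCA. The TATA box was read as TATAAA, the usual core. The GC box, a site of Sp1, was read as GGGCGG. The PEA3 site, bound by Ets factors, was read as AGGAAG.
Timp1, chrX:20869916-20870165, plus strand: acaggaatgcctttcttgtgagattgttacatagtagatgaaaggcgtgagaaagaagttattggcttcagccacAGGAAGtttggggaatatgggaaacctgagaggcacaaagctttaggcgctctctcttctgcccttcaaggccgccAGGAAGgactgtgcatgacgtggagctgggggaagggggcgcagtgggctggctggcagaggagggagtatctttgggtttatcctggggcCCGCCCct
Timp2, chr11:118355412-118355661, minus strand: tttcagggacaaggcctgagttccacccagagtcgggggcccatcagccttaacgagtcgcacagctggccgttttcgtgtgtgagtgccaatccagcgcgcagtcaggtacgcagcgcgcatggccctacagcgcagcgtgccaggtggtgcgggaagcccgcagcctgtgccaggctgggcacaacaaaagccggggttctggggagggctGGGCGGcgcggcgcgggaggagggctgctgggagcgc
Timp3, chr10:86300162-86300411, plus strand: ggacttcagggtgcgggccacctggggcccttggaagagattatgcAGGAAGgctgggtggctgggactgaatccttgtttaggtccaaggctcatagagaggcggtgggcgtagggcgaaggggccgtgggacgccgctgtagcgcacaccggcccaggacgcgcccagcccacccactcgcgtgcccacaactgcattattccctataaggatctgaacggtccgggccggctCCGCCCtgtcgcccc
Timp4, chr6:115252206-115252455, minus strand: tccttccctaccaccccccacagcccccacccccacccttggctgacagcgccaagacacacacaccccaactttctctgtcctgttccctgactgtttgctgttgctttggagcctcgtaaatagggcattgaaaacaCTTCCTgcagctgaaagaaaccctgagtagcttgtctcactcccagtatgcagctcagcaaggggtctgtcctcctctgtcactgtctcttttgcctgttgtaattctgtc
Mmp3, chr9:7445572-7445821, plus strand: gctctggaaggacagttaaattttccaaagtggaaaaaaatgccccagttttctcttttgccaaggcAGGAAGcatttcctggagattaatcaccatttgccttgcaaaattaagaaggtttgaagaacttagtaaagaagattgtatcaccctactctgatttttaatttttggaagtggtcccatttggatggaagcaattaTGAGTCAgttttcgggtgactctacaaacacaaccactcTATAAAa
Mmp13, chr9:7272264-7272513, plus strand: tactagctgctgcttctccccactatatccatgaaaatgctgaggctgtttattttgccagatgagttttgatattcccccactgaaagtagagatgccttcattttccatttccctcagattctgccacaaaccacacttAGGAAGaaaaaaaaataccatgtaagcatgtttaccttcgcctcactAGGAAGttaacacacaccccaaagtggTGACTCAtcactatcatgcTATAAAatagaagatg

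No Timp window held an AP-1 or TATA match. Timp1 held 1 GC box and 2 PEA3 matches, Timp2 1 GC box, Timp3 1 of each and Timp4 1 PEA3 match. The Timp2 and Timp3 windows were 68.0% and 65.6% G or C, against a median of 52.4% over all promoters in the table. The Mmp3 window was 37.6% G or C and the Mmp13 window 40.4%. In Mmp3 the AP-1 match began 46 bases before the start and the TATA match 7 bases before it; in Mmp13 these distances were 35 and 16 bases. Of the 33 member genes with a promoter entry, AP-1 matches occurred in 6, and these were the 6 genes of the chromosome 9 run on the array: Mmp13, Mmp12, Mmp3, Mmp10, Mmp20 and Mmp7. AP-1 matches occurred in 6.75% of all 32851 promoters of this length. TATA matches occurred in 5 of these 6 genes and in 3 of the 26 members on the array outside the run, against 12.4% of all promoters. GC boxes occurred in none of the 6 and in 20 of the 26, against 32.7% of all promoters. PEA3 matches occurred in 4 of the 6 and 7 of the 26, against 29.5%. The remaining member with a promoter entry, Mmp27, also belongs to the chromosome 9 run but had no named probe on the array. Its window held no match to any of these motifs, AP-1 included, so the AP-1 matches do not cover the whole run. A match is a run of letters, not a measured binding site.

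The families differed in how many members gave signal. All 4 Timp genes, 14 of 19 Adamts, 4 of 5 Adamtsl and 9 of 19 Mmp genes were well above background on all 8 arrays, which makes 31 members in all. The 9 that were so on no array were Mmp3 and Mmp10 (stromelysins), Mmp7 (matrilysin), Mmp20 (the tooth enamel protease), Mmp21, Mmp24, Mmp25, Adamts12 and Adamts13, the protease of von Willebrand factor. In the chromosome 9 run, 4 of 6 genes were above background on no array, the collagenase Mmp13 on array A alone, and Mmp12 on 3 arrays. Adamts16 was so on array D by its brightest probe and on WT birth replicate 1 by another, and Adamts20 was so on KI birth replicate 2 alone. Mmp9 was so on both KI birth arrays, Adamtsl3 on KI birth replicate 2, C and D, and Adamts3 on 7 arrays, all but WT birth replicate 1. For a gene not well above background the array gives only an upper limit. The 13 members not tested were the 9 above together with Mmp13, Adamts16, Adamts20 and Adamtsl3, and Adamtsl3 was tested in the scanner-file record.

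Between birth and 1 week, 18 of the 34 tested members (52.9%) differed, 14 higher and 4 lower at 1 week, where 29.2% of all genes did (limma, Benjamini-Hochberg adjusted p under 0.05, averaged over genotypes). Among all genes, 15.3% were called higher and 13.9% lower. The median difference of the 34 members was +0.31 on the log2 scale, against -0.01 over all genes. By family the calls were 7 higher and 2 lower of 15 Adamts, 3 higher of 11 Mmp, 2 higher of 4 Adamtsl, and 2 higher and 2 lower of 4 Timp genes. For 17 members the 4 birth arrays and the 4 arrays at 1 week did not overlap, 13 higher and 4 lower, where 35.6% of all genes did not overlap (17% higher, 18.6% lower). With arrays scaled to the median in place of the 75th percentile, the median of all genes shifted to -0.12 and 15 members were called, 9 higher and 6 lower, where 27.6% of all genes were (11% higher, 16.7% lower). The share of higher calls among all genes was then 39.7% in place of 52.5%. With array B left out fewer members were called, and the share of all genes called without B is not given here. In the scanner-file record 19 of 35 were called, where 30.4% of all genes were, and 16 of the 18 were among them.

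**Figure D1:**
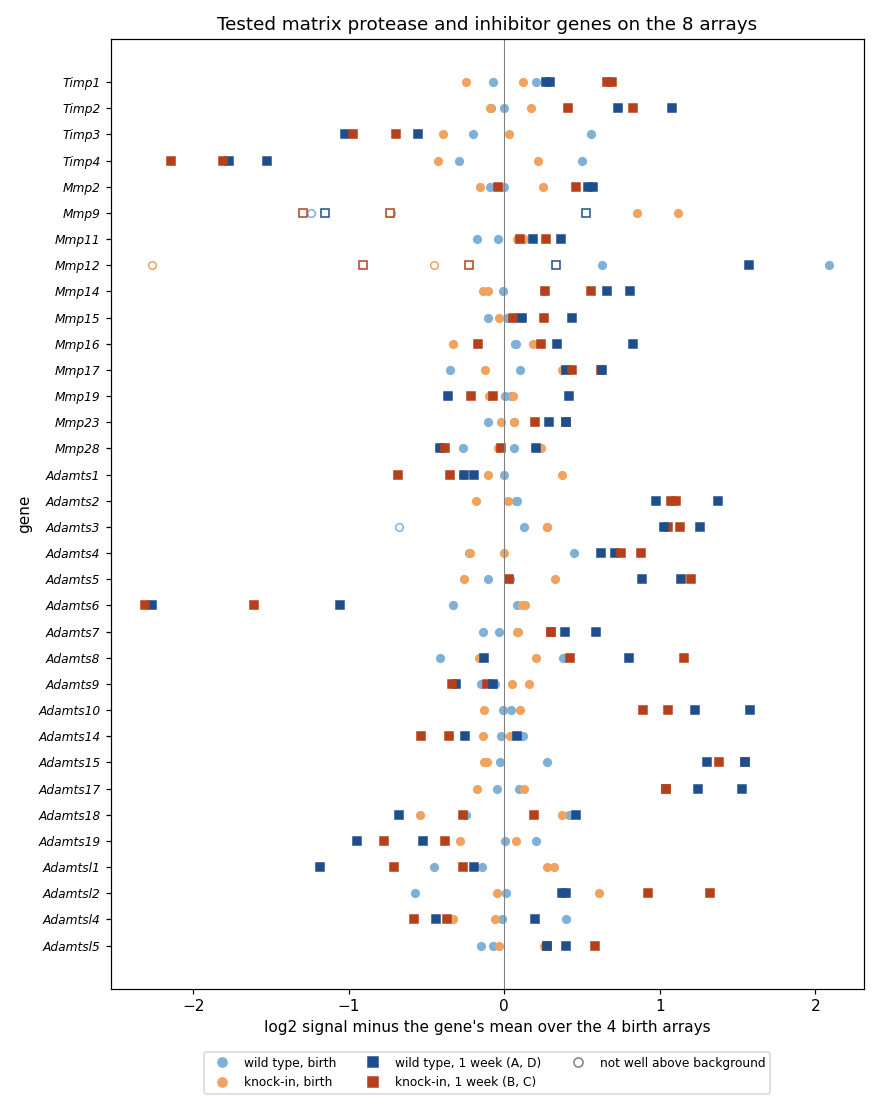
Log2 signal of each of the 34 tested members on each array (x axis), minus the mean of that gene over the 4 birth arrays, with 1 gene a row (y axis); circles are birth arrays, squares 1-week arrays, and open symbols are arrays where the gene was not well above background. The 1-week squares lie right of all birth circles for 13 genes and left of them for 4, among these Timp4 and Adamts6.

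All array values below are log2 signal relative to the array's 75th percentile, and all differences are log2 differences, 1 week minus birth or KI minus WT, with the limma standard error. Among the TIMPs, Timp4 and Timp3 fell and Timp2 and Timp1 rose. Timp4, the inhibitor best known from heart muscle, was 0.66 and 1.45 (WT) and 0.52 and 1.17 (KI) at birth, and -0.82 (A), -0.86 (B), -1.19 (C) and -0.57 (D) at 1 week. Every 1-week array was below every birth array, and the difference was -1.81 ± 0.22 (adjusted p = 0.00169), or 3.51-fold lower. A second Timp4 probe gave -1.83. Timp3, which binds to the matrix and also blocks ADAM17 and several ADAMTS proteases, was 3.82 and 4.58 (WT) and 3.63 and 4.05 (KI) at birth, and 2.99 (A), 3.04 (B), 3.32 (C) and 3.46 (D) at 1 week. The ages did not overlap, and the difference was -0.81 ± 0.21 (adjusted p = 0.0281). This call was lost when any 1 of WT birth 2, KI birth 2, A, B and C (adjusted p = 0.055 to 0.0897) was left out, and with no filter on dim genes. Timp2, which both inhibits Mmp2 and takes part in its activation by Mmp14, was 4.21 and 4.28 (WT) and 4.46 and 4.20 (KI) at birth, and 5.02 (A), 5.11 (B), 4.70 (C) and 5.37 (D) at 1 week. Each 1-week array exceeded each birth array, with a difference of +0.76 ± 0.14 (adjusted p = 0.00789). Second probes for Timp3 and Timp2 gave -0.61 and +0.51. Timp1, a secreted inhibitor often raised in injured tissue, was 1.46 and 1.18 (WT) and 1.37 and 1.01 (KI) at birth, and 1.52 (A), 1.92 (B), 1.95 (C) and 1.55 (D) at 1 week. The 1-week arrays lay above the birth arrays, B and C furthest, and the difference was +0.48 ± 0.12 (adjusted p = 0.0228). The call was lost without any 1 of WT birth 2, KI birth 2, B, C and D (adjusted p = 0.0501 to 0.0731), in the scanner-file record and with median scaling.

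**Figure D2:**
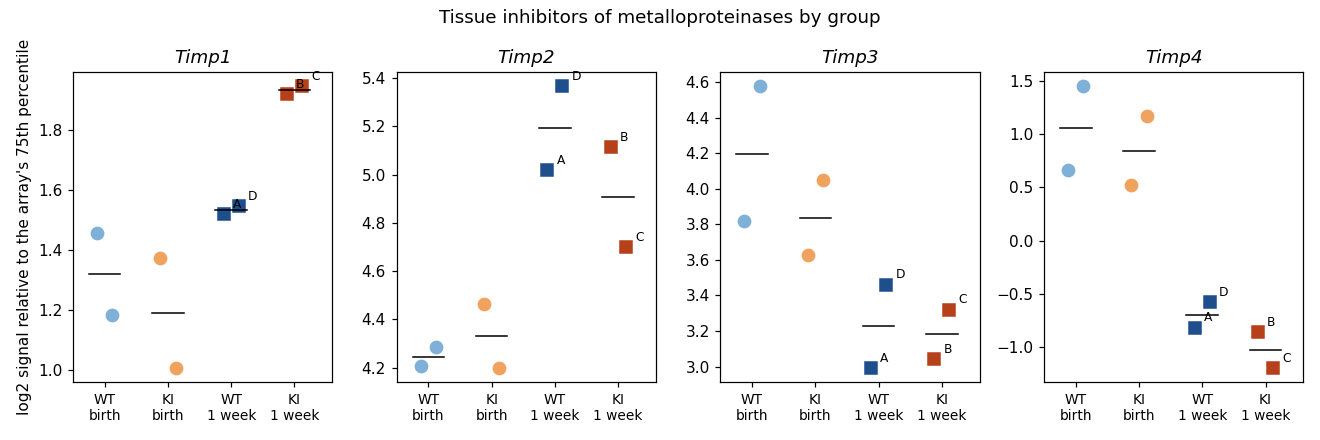
Log2 signal relative to the array's 75th percentile (y axis) of Timp1 to Timp4 in the 4 groups (x axis; WT wild type, KI knock-in, value-table labels); points are arrays, bars are means of 2 arrays, and each panel has its own y range. Timp4 and Timp3 lie lower at 1 week, Timp2 and Timp1 higher, on all 4 arrays of that age.

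Among the procollagen N-proteinases, Adamts2 and Adamts3 rose and Adamts14 did not pass the test. Adamts2, which trims fibrillar procollagens, was 2.15 and 2.16 (WT) and 2.10 and 1.90 (KI) at birth, and 3.05 (A), 3.15 (B), 3.18 (C) and 3.45 (D) at 1 week. Birth and 1-week arrays did not overlap, with a difference of +1.13 ± 0.11 (adjusted p = 0.000818), and a second probe gave +1.52. Adamts3, which also processes the lymphatic growth factor Vegfc, was -6.16 and -5.36 (WT) and -5.21 and -5.21 (KI) at birth, and -4.23 (A), -4.43 (B), -4.36 (C) and -4.46 (D) at 1 week. It lay near background, and WT birth replicate 1 was not well above it. The difference was +1.12 ± 0.18 (adjusted p = 0.00459), and it was +0.36 with normexp background correction. Adamts14 ranged from 0.86 to 1.12 at birth and from 0.46 to 1.08 at 1 week.

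Of the proteoglycanases, Adamts15 and Adamts4 rose. Adamts15, which cuts versican and aggrecan, was -0.73 and -1.03 (WT) and -1.14 and -1.12 (KI) at birth, and 0.29 (A), 0.54 (B), 0.37 (C) and 0.54 (D) at 1 week. No birth array reached a 1-week array, and the difference of +1.44 ± 0.11 (adjusted p = 0.000334) had the smallest p of the members. Its neighbour on chromosome 9, Adamts8, ranged from -0.55 to 0.24 at birth and from -0.27 to 1.02 at 1 week, with overlap. Adamts4 (aggrecanase-1) was -1.48 and -2.15 (WT) and -1.93 and -2.14 (KI) at birth, and -1.21 (A), -1.17 (B), -1.04 (C) and -1.30 (D) at 1 week. The ages did not overlap, with a difference of +0.74 ± 0.16 (adjusted p = 0.0145), and the call was lost without KI birth replicate 2 (adjusted p = 0.0517). Adamts5, Adamts1 and Adamts9, which also cut versican, did not pass. Adamts5 was -3.77 and -3.63 (WT) and -3.92 and -3.34 (KI) at birth, and -2.53 (A), -2.46 (B), -3.63 (C) and -2.78 (D) at 1 week; 3 of the 1-week arrays were above all birth arrays and C was within their range. A second Adamts5 probe, well above background on all 8 arrays, was -3.98 and -3.87 (WT) and -4.14 and -3.63 (KI) at birth. At 1 week this probe was -3.33 (A), -2.97 (B), -2.95 (C) and -3.09 (D), without overlap, a difference of +0.82. Adamts5 passed in the scanner-file record, with normexp correction, with the mean of all probes and among genes above background on all arrays. Adamts1, its neighbour on chromosome 16, ranged from 1.90 to 2.54 at birth and from 1.48 to 1.97 at 1 week, and Adamts9 from 1.99 to 2.30 and from 1.80 to 2.07.

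Adamts10 and Adamts6, close relatives both linked to fibrillin microfibrils, moved in opposite directions. Adamts10 was -1.40 and -1.36 (WT) and -1.53 and -1.30 (KI) at birth, and -0.17 (A), -0.35 (B), -0.51 (C) and 0.18 (D) at 1 week. It was higher on every 1-week array, D furthest, with a difference of +1.19 ± 0.12 (adjusted p = 0.000704), and a second probe gave +1.31. Adamts6 was -1.78 and -1.37 (WT) and -1.32 and -1.34 (KI) at birth, and -3.72 (A), -3.76 (B), -3.06 (C) and -2.51 (D) at 1 week. It was lower on every 1-week array, A and B most, with a difference of -1.81 ± 0.29 (adjusted p = 0.00462), or 3.51-fold lower. A second Adamts6 probe gave -1.28, and normexp background correction gave -1.02 for the first. A second related pair did likewise. Adamts17, whose loss in people gives a short-stature syndrome with lens defects, as does loss of Adamts10, was -0.75 and -0.89 (WT) and -0.72 and -1.02 (KI) at birth, and 0.40 (A), 0.19 (B), 0.19 (C) and 0.68 (D) at 1 week. All 1-week arrays were above all birth arrays, with a difference of +1.21 ± 0.11 (adjusted p = 0.000593); a dimmer second probe gave +0.35. Adamts19, a protease linked to heart valve disease, was 0.47 and 0.26 (WT) and 0.34 and -0.023 (KI) at birth, and -0.68 (A), -0.51 (B), -0.12 (C) and -0.26 (D) at 1 week. The ages did not overlap, and the difference was -0.66 ± 0.16 (adjusted p = 0.021). The call was lost without any 1 of WT birth 1, KI birth 1 and B (adjusted p = 0.0664 to 0.0695). Adamts7, which cuts cartilage oligomeric matrix protein, was 0.53 and 0.64 (WT) and 0.75 and 0.76 (KI) at birth, and 1.06 (A), 0.97 (B), 0.97 (C) and 1.26 (D) at 1 week. The ages did not overlap, with a difference of +0.40 ± 0.088 (adjusted p = 0.0165), a call lost without any 1 of WT birth 1, KI birth 1, KI birth 2, B and C (adjusted p = 0.0531 to 0.0599) and with median scaling. Adamts18 ranged from -4.99 to -4.03 at birth and from -5.13 to -3.99 at 1 week.

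Of the metalloproteinases, Mmp14, Mmp23 and Mmp17 rose and none fell. Mmp14, the membrane-type enzyme that activates Mmp2 and cuts collagen at the cell surface, was -0.98 and -0.72 (WT) and -1.08 and -1.11 (KI) at birth, and -0.31 (A), -0.41 (B), -0.71 (C) and -0.16 (D) at 1 week. Array C was only just above the highest birth array. The difference was +0.57 ± 0.11 (adjusted p = 0.0104), and it passed under every alternative tried. Mmp23, a membrane-anchored enzyme, was 0.18 and 0.35 (WT) and 0.26 and 0.35 (KI) at birth, and 0.57 (A), 0.68 (B), 0.48 (C) and 0.68 (D) at 1 week. The ages did not overlap, and the difference was +0.32 ± 0.095 (adjusted p = 0.0436). The call was lost without any 1 of WT birth 1, WT birth 2, KI birth 1, KI birth 2, B, C and D (adjusted p = 0.0652 to 0.141) and under 5 other alternatives. Mmp17, anchored by a lipid tail, ranged from -3.20 to -2.48 at birth and from -2.46 to -2.23 at 1 week, with an adjusted p of 0.0484. Its call was lost when any 1 of WT birth 1, KI birth 1, A, B, C and D was left out and under 5 of 10 other alternatives. The gelatinase Mmp2 did not pass; on the 8 arrays it was 1.50 and 1.40 (WT) and 1.34 and 1.74 (KI) at birth, and 2.04 (A), 1.96 (B), 1.46 (C) and 2.06 (D) at 1 week. Arrays A, B and D were above all birth arrays and C was not.

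Of the membrane-type enzymes Mmp15 and Mmp16, neither passed. Mmp15 ranged from 0.65 to 0.87 at birth and from 0.81 to 1.19 at 1 week, and Mmp16 from -3.75 to -3.24 and from -3.59 to -2.60. Mmp11 (stromelysin-3, activated inside the cell by furin) ranged from 0.44 to 0.74 and from 0.71 to 0.98. Mmp19 ranged from -1.77 to -1.62 and from -2.04 to -1.26, and Mmp28 (epilysin) from -1.99 to -1.49 and from -2.15 to -1.53. The ages overlapped for these 5 genes.

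Among the ADAMTS-like genes, Adamtsl2 was called higher at 1 week, and Adamtsl5 was by its brightest probe but not in the same direction by its second. Adamtsl2, a fibrillin-binding protein mutated in geleophysic dysplasia, was -1.94 and -1.35 (WT) and -1.41 and -0.75 (KI) at birth, and -0.99 (A), -0.040 (B), -0.44 (C) and -0.97 (D) at 1 week. KI birth replicate 2 lay above A and D, so the ages overlapped, and the difference was +0.75 ± 0.20 (adjusted p = 0.0304). The call was lost without any 1 of WT birth 1, KI birth 1, A, B and D (adjusted p = 0.0546 to 0.0974), in the scanner-file record and with no filter on dim genes. Adamtsl5 ranged from -0.80 to -0.39 at birth and from -0.37 to -0.062 at 1 week on its brightest probe, with an adjusted p of 0.0454. Its second probe, also well above background on all 8 arrays, gave -0.19, against +0.38 for the first. The Adamtsl5 call was lost when any 1 array but C was left out and under 7 of 10 other alternatives. Adamtsl1 and Adamtsl4 did not pass. Adamtsl1 ranged from -3.11 to -2.34 and from -3.84 to -2.85, and Adamtsl4, also a fibrillin-binding protein, from 0.38 to 1.11 and from 0.13 to 0.90.

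Taken within each genotype, 11 members passed in WT (8 higher, 3 lower; of all genes 19.3% were called, 10.7% higher and 8.63% lower) and 8 in KI (6 higher, 2 lower; of all genes 10.6%, 5.93% higher and 4.62% lower). Adamts15, Adamts17, Adamts10 and Adamts2 were called higher and Timp4 and Adamts6 lower in both. The calls of the first 4 in WT and of Adamts15 in KI held under all 19 alternatives. The Adamts6 call was lost under 10 of 19 in WT and 5 of 19 in KI. Timp4 lost its call without WT birth replicate 2 in WT, and without KI birth replicate 2, B or C in KI. Timp4 differed by -1.75 ± 0.32 (adjusted p = 0.0122) in WT and -1.87 ± 0.32 (adjusted p = 0.0137) in KI. Adamts15 differed by +1.30 ± 0.16 (adjusted p = 0.00338) in WT and +1.59 ± 0.16 (adjusted p = 0.00246) in KI. Adamts3, Timp2, Adamts7, Mmp14 and Adamts19 passed in WT and not in KI, while Timp1 and Adamts4 passed in KI and not in WT. Mmp14 differed by +0.61 ± 0.16 (limma adjusted p = 0.0386) in WT and +0.53 ± 0.16 (adjusted p = 0.0855) in KI. The WT call was lost under 11 of 19 alternatives for Mmp14 and 10 of 19 for Adamts19, and the KI call of Adamts4 under 10 of 19. Timp1 differed by +0.21 ± 0.16 (adjusted p = 0.383) in WT and +0.74 ± 0.16 (adjusted p = 0.034) in KI, and Adamts7 by +0.57 ± 0.12 (adjusted p = 0.0224) and +0.22 ± 0.12 (adjusted p = 0.331). The difference between genotypes was itself tested (age by genotype, limma), and 0 of 34 members passed, with 1 (Mmp9, measured above background on the KI birth arrays alone) at an unadjusted p under 0.05, as had 4.99% of all genes; 0.00635% of all genes passed. It was +0.53 ± 0.23 (adjusted p = 0.883) for Timp1 and -0.36 ± 0.18 (adjusted p = 0.883) for Adamts7. For Adamts1 it was -0.56 ± 0.29 (adjusted p = 0.883). Single arrays weighed on these counts. The fewest members passed without WT birth replicate 2 in WT, and without KI birth replicate 2, B or C in KI. The share of all genes called without these arrays is not given here. In the scanner-file record 11 passed in WT (12.7% of all genes) and 7 in KI (15.5%), of which 8 and 6 were called by the value table too. Among those lost were Timp2, Adamts7 and Mmp14 in WT and Timp1 and Adamts4 in KI. Timp1 then differed by +0.40 ± 0.22 (adjusted p = 0.278) in WT and +0.56 ± 0.22 (adjusted p = 0.138) in KI.

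**Figure D3:**
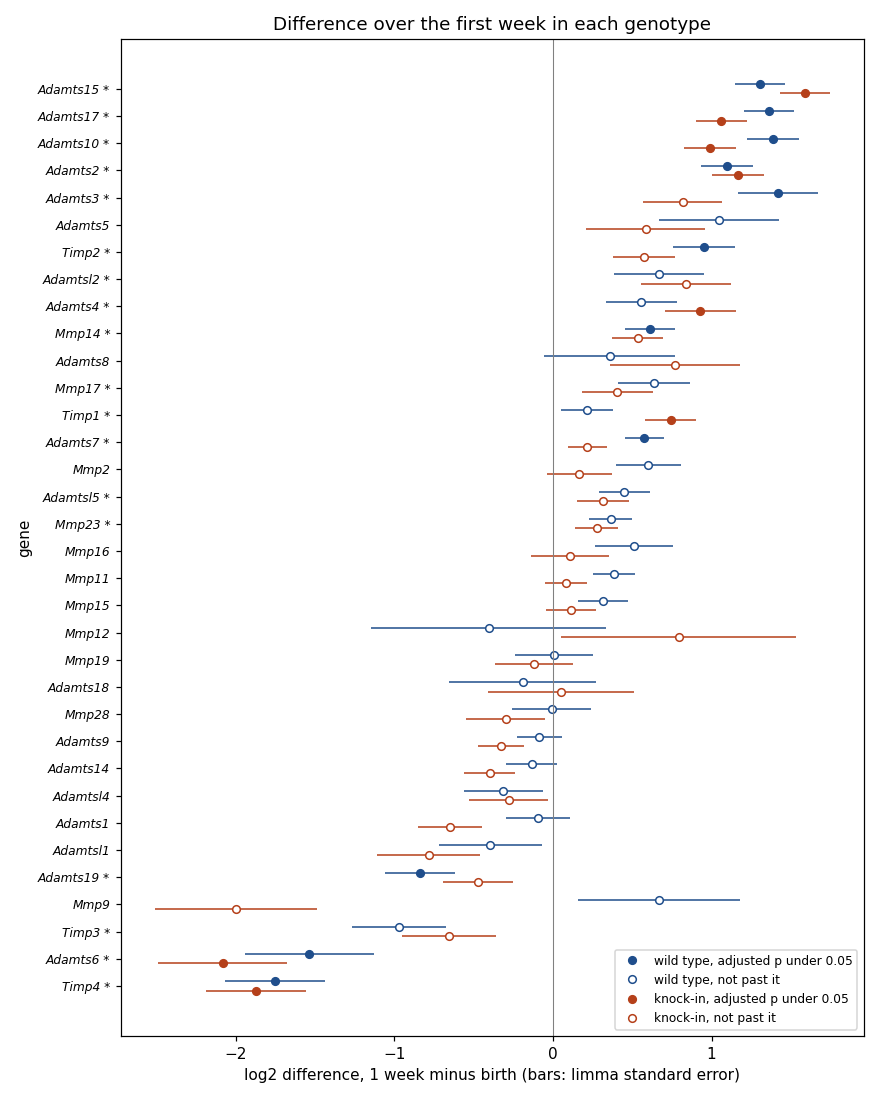
Log2 difference at 1 week against birth (x axis) of the 34 tested members (y axis) in wild type and knock-in, with limma standard errors; filled points passed at an adjusted p under 0.05, and a star marks genes that passed averaged over genotypes. Adamts15, Adamts17, Adamts10, Adamts2, Timp4 and Adamts6 are filled in both genotypes; Mmp9 and Mmp12 rest on arrays near background.

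At birth, 0 of 34 members differed between KI and WT (limma, adjusted p under 0.05), with 2 at an unadjusted p under 0.05, as had 4.62% of all genes; 0.0381% of all genes passed. The KI and WT arrays did not overlap for 13 of 34 members, 8 with KI above and 5 below. Among all genes 32.3% did not overlap, 2513 with KI above and 2578 below. The 2 with the smallest p, Mmp9 and Mmp12, were tested because the group where each was high was above background, and the other genotype gave only a limit. Mmp9, the gelatinase of neutrophil granules, was -6.87 and -7.39 (WT) and -5.03 and -5.30 (KI) at birth, and -7.30 (A), -7.45 (B), -6.89 (C) and -5.63 (D) at 1 week. It was well above background on the KI birth arrays and on no other array, although D had the next highest signal. Against the background limit Mmp9 was at least 1.49-fold higher in KI at birth (limma adjusted p = 0.63), or 1.04-fold with normexp correction. Its second probe was above background on no array. Summed neutrophil marker signal (8 of 8 markers tested) was 8.70 to 10.3 times the 75th percentile on the WT birth arrays, 15.4 to 17.7 on the KI birth arrays and 2.62 to 4.04 at 1 week. The markers S100a9 and S100a8 made up most of these sums, so they say little about the other neutrophil markers. Of the 8 markers, 0 were called for genotype at birth (limma, adjusted p under 0.05). The part of neutrophil signal in the Mmp9 values was not tested.

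Mmp12, the macrophage elastase, went the other way and was -3.28 and -4.74 (WT) and -5.82 and -7.63 (KI) at birth, and -3.79 (A), -6.27 (B), -5.59 (C) and -5.03 (D) at 1 week. Both WT birth arrays and A were well above background and the other 5 arrays were not. At birth KI was at least 3.40-fold lower against the background limit (limma adjusted p = 0.696), or 1.41-fold with normexp correction. The 2 other Mmp12 probes were above background on no array. Summed macrophage marker signal (8 of 8 tested) was 5.13 to 6.01 on the WT and 5.73 to 6.58 on the KI birth arrays, and its part was not tested. Next in order came Adamts3, at +0.55 ± 0.25 (adjusted p = 1.00), and Adamtsl2, at +0.57 ± 0.28 (adjusted p = 1.00). Over the 31 members above background on all arrays, KI minus WT at birth lay between -0.39 and +0.59, with a median of 0.04 and a median half-width of the 95% interval of 0.49. The intervals together reached from -1.27 to +1.36.

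**Figure D4:**
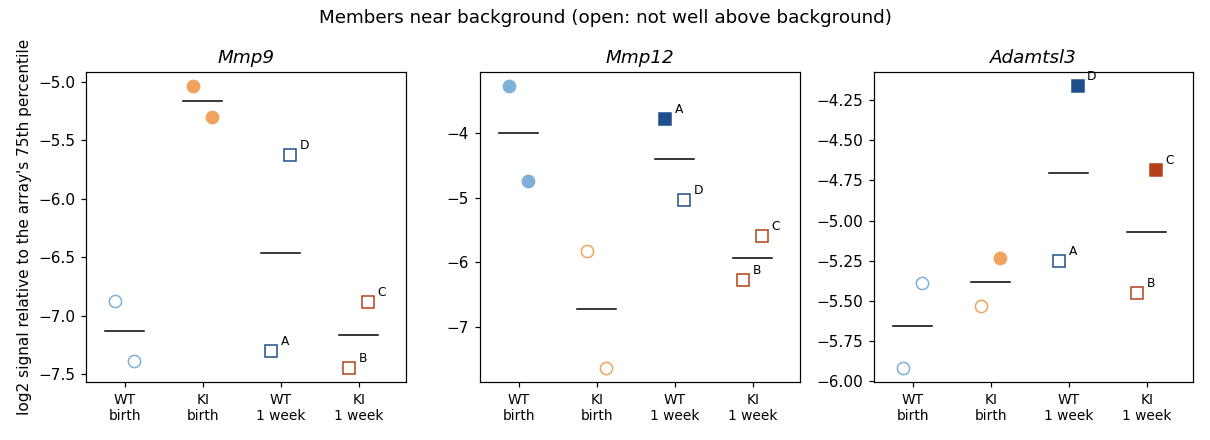
Log2 signal relative to the array's 75th percentile (y axis) of Mmp9, Mmp12 and Adamtsl3 in the 4 groups (x axis; value-table labels); points are arrays, bars are means of 2 arrays, and open symbols are arrays not well above background. Mmp9 is filled on the 2 KI birth arrays, Mmp12 on the 2 WT birth arrays and A, and Adamtsl3 on KI birth replicate 2, C and D.

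At 1 week 0 of 34 members differed between KI and WT, with 3 at an unadjusted p under 0.05, as had 7.15% of all genes; 0.0445% of all genes passed. The KI and WT arrays did not overlap for 13 members, 3 with KI above (Adamts4, Adamtsl2 and Timp1) and 10 below. Among all genes 38.3% did not overlap, 2859 with KI above and 3174 below. The split of the members turned with the scanner-file labels, as given below. Adamts10 differed by -0.43 ± 0.16 (adjusted p = 0.672) and Adamtsl2 by +0.74 ± 0.28 (adjusted p = 0.672). Timp1, at 1.52 and 1.55 on the WT arrays and 1.92 and 1.95 on the KI arrays, differed by +0.40 ± 0.16 (adjusted p = 0.679). Adamts14 differed by -0.36 ± 0.16 (adjusted p = 0.679). Over the 31 members above background on all arrays, the difference lay between -0.55 and +0.74, with 95% intervals that together reached from -1.29 to +1.43. The absence of calls does not show that the genotypes were alike.

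The scanner-file labels changed the direction of many, but not most, of the members' differences at 1 week. In that record 0 of 35 members passed at 1 week, with 8 at an unadjusted p under 0.05, as had 10.4% of all genes; 0% of all genes passed. KI minus WT was above 0 for 10 and below 0 for 24 of the tested members by the value table. By the scanner files it was above 0 for 24 and below for 11. The median over all genes was 0.00084 and 0.022 in the 2 records, and the share of all genes on each side of 0 is not given here. With median scaling the value-table counts were 17 and 17, and the median over all genes was 0.12. By the scanner files the KI and WT arrays did not overlap for 13 members with KI above and 3 with KI below. Among all genes 40.8% did not overlap in that record, 3454 with KI above and 2974 below. By the same labels the members with the smallest p in the value table also changed. Adamts10 became +0.095, Adamtsl2 -0.19 and Adamts14 +0.26, and Timp1 became +0.027 ± 0.22 (adjusted p = 0.981). The smallest p by the scanner files was for Adamts6, at +0.95 ± 0.21 (adjusted p = 0.371), where C and D exceeded A and B. Adamtsl3, which has C and D above background and A and B not, was -5.92 and -5.39 (WT) and -5.53 and -5.23 (KI) at birth, and -5.25 (A), -5.45 (B), -4.69 (C) and -4.16 (D) at 1 week. It was at least 1.90-fold higher in KI by the scanner files against the background limit, or 1.36-fold with normexp correction. By the value-table labels, 1 array of each genotype at 1 week measured it.

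**Figure D5:**
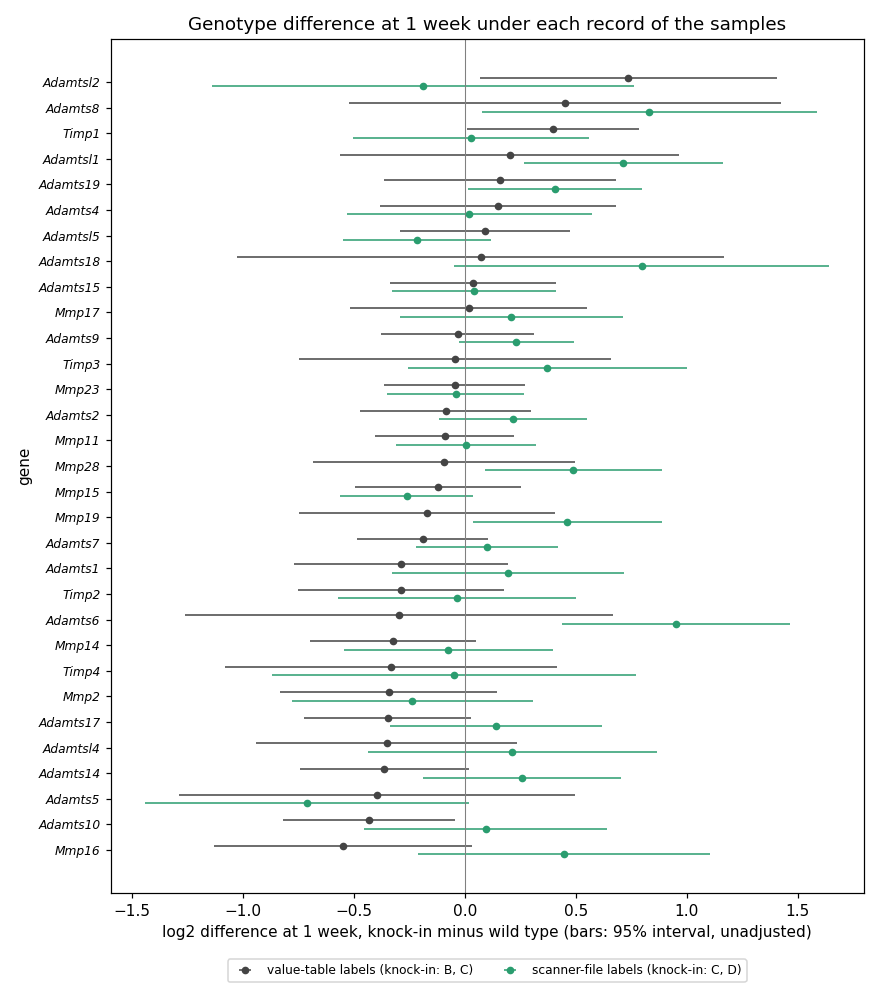
Log2 difference at 1 week, KI minus WT (x axis), of the 31 members above background on all 8 arrays (y axis), under the value-table labels and the scanner-file labels; bars are 95% intervals without adjustment for multiple tests. Adamts10, Adamtsl2 and Adamts14, among others, lie on opposite sides of 0 in the 2 records, and 0 members passed after adjustment in either.

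Partners and substrates of these proteases were read from 6 lists of 59 genes, of which 50 were tested. Of these, 21 were higher and 10 lower at 1 week, and 0 differed between genotypes at either age (limma, in either record). Among all genes, 29.2% were called for age, 15.3% higher and 13.9% lower, which also stands beside each list count below. For genotype, 0.0381% of all genes were called at birth and 0.0445% at 1 week by the value table. In the plasminogen system, which activates several Mmps, 2 of 5 rose and 0 fell: Plat (tissue plasminogen activator) by +0.49 ± 0.097 (adjusted p = 0.0111) and Plau (urokinase) by +0.79 ± 0.19 (adjusted p = 0.0235). Plg itself was above background on no array. Of the proprotein convertases and procollagen proteinases, 4 of 7 rose and 2 fell. Pcolce2, an enhancer of procollagen C-proteinases, was -3.15 and -2.75 (WT) and -3.34 and -3.35 (KI) at birth, and 0.32 (A), 0.50 (B), 0.13 (C) and 0.27 (D) at 1 week. It was higher on all 1-week arrays, by +3.45 ± 0.13 (adjusted p = 4.47e-05). Pcsk6, a convertase that can activate precursors of Mmp and Adamts proteases, differed by +1.85 ± 0.088 (adjusted p = 7.97e-05) and the C-proteinase Bmp1 by +0.64 ± 0.11 (adjusted p = 0.0055). Tll1, a relative of Bmp1, differed by -0.88 ± 0.23 (adjusted p = 0.0277).

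Of 13 membrane and secreted regulators, 3 rose and 3 fell. A2m, a plasma protease inhibitor, was above background on the 4 birth arrays and on none at 1 week; it was at least 1.93-fold lower at 1 week in WT and 2.97-fold in KI, or 1.15-fold and 1.55-fold with normexp correction. Spock2, a proteoglycan of the testican group, differed by -1.77 ± 0.21 (adjusted p = 0.00159) and Wfikkn2, a protein with protease inhibitor domains, by -1.06 ± 0.11 (adjusted p = 0.000769). Thbs2, whose protein takes Mmp2 into the cell for breakdown, differed by +0.63 ± 0.091 (adjusted p = 0.00316). Of 7 ADAM sheddases, 2 rose and 2 fell: Adam17 by +0.46 ± 0.084 (adjusted p = 0.00784), Adam15 by +0.62 ± 0.13 (adjusted p = 0.014), Adam9 by -0.70 ± 0.12 (adjusted p = 0.00637) and Adam8 by -0.54 ± 0.11 (adjusted p = 0.0137). Of 8 cathepsins and other matrix proteases, 4 rose and 1 fell. Fap, a fibroblast surface protease, differed by +2.11 ± 0.088 (adjusted p = 6.24e-05), Htra1 by +1.21 ± 0.11 (adjusted p = 0.000593), Ctsb by +0.56 ± 0.084 (adjusted p = 0.00362) and the cathepsin inhibitor Cst3 by +0.48 ± 0.10 (adjusted p = 0.0138).

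Of 10 proteoglycan and procollagen substrates, 6 rose and 2 fell. Fbn1, the main fibrillin of mature microfibrils, differed by +0.90 ± 0.087 (adjusted p = 0.000701), and Fbn2, the fibrillin of fetal tissue, by -0.83 ± 0.14 (adjusted p = 0.00556), a call lost in the scanner-file record (adjusted p = 0.0554). Col1a2, a chain of type I collagen, differed by +0.93 ± 0.11 (adjusted p = 0.00131) and Acan (aggrecan) by +1.32 ± 0.19 (adjusted p = 0.00289). Versican (Vcan), named here after its values were seen, was 1.69 and 1.42 (WT) and 1.74 and 1.57 (KI) at birth, and 0.65 (A), 0.70 (B), 1.20 (C) and 0.93 (D) at 1 week. It was lower on all 1-week arrays, by -0.73 ± 0.15 (adjusted p = 0.0116).

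Markers of other cell types moved with age as well, and in bulk ventricle more cells of a type and more RNA per cell cannot be told apart. Beside the counts below, 29.2% of all genes were called for age, 15.3% higher and 13.9% lower. Of 8 fibroblast markers, 5 were higher and 1 lower at 1 week. Their summed signal was 144 times the 75th percentile on both WT birth arrays, 123 to 150 on the KI birth arrays, 234 to 321 on the WT and 235 to 262 on the KI arrays at 1 week. Of 7 endothelial markers, 5 were higher and 0 lower, with sums of 89.4 to 93.2 at birth and 117 to 168 at 1 week. Of 8 macrophage markers, 4 were higher and 1 lower, with sums of 5.13 to 6.58 and 7.82 to 10.6. Of 7 smooth muscle and pericyte markers, 4 were higher and 1 lower, with sums of 94.0 to 122 and 89.8 to 127. The marker Acta2, at 5.65 to 6.62 on the 8 arrays, made up most of these sums. Of 8 neutrophil markers, 1 was higher and 6 lower. Of 8 brown fat and adipocyte markers, 3 were higher and 0 lower, with sums of 124 to 141 at birth and 127 to 187 at 1 week. The marker Fabp4, at 6.73 to 7.32 on the 8 arrays, made up most of these sums. Next brightest was Cidea, at 3.50 to 4.38, so the sums say little about the other markers of this list. Ucp1, the uncoupling protein of brown fat, was -7.77 to -7.34 at birth and -6.77 on A, none of these well above background, but 0.038 on B, 0.74 on C and 1.96 on D. Adipoq, Cfd and Plin1, genes of fat cells, were likewise well above background on B, C and D alone. Of 4 tested lymphocyte markers, all were higher at 1 week, with sums of 0.339 to 0.477 at birth and 0.600 to 0.892 at 1 week; Rag1 and Ptcra were above background on no array. Among the other lists, 3 of 5 mast cell markers were higher and 2 lower, 1 of 6 epicardial markers was higher and 1 lower, 2 of 4 cartilage and bone and 1 of 3 erythroid markers were higher, and 1 of 3 skeletal muscle markers was lower. The part of these markers in the members' differences was not tested.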

How the data were processed

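Ventricular RNA was labelled with Cy3 and hybridised to 8 Agilent arrays on 1 slide, read in 1 scan. The deposited scanner files hold processed spot intensity, background-corrected on each array by the scanner software and not normalized across arrays, per the file headers. The file headers name Feature Extraction 11.0.1.1 and mm9, and the submitters' processing notes version 9.1. The deposited flags (other) are coded 0 and 1. The deposited value table holds the same intensity per probe. Its 1-week columns matched the scanner files of other samples for 3 of 4 arrays over 56305 single-spot probes (relative tolerance 0.0001).

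Outlier and control spots were left out, spots of a probe were averaged, log2 was taken and each array's 75th percentile, over its non-control spots, was subtracted. RefSeq accessions (GRCm38.p6 table) named 32988 probes of 22909 genes. The brightest probe stood for a gene, tested if well above background on both arrays of a group. Group means were fitted over all 8 arrays with limma 3.58.1 (lmFit, eBayes; R 4.3.3; 4 residual degrees of freedom), with Benjamini-Hochberg adjustment over all genes and a threshold of 0.05. On simulated data over 15744 genes, age changes of 2-fold were recovered for 145 of 200 genes and of 4-fold for 189 of 200. For genotype at birth the numbers were 83 and 180. The simulation drew independent noise and changed only those 200 genes, whereas 29.2% of all genes were called for age. Its numbers for age therefore do not measure the recovery in these data. Exact permutation tests cannot reach the threshold with 2 arrays a group.

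A fold against a group not well above background used, per array, the higher of the gene's own signal and the lowest signal among probes well above background. For normexp (offset 50) the deposited median spot intensity and median local background intensity were used, since the columns held no mean signal. Differences were given for members past the threshold (the 16 with the smallest p), filled to 4 by smallest p, and for up to 4 genes of each companion list; Vcan and the members given by range only fall outside this. Members and lists were chosen with earlier results of these data known. Scaling to the percentile over probes was added after seeing the data. Not every gene the rule covers is reported. The number of arrays limits the precision.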

Additional observations from a re-analysis of the deposited data

How the results depend on the processing

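The 9 members Adamts15, Adamts17, Adamts10, Adamts2, Adamts3, Adamts6, Timp4, Timp2 and Mmp14 passed for age, averaged over genotypes, under every alternative that gave them a value (17 or 18 each). None of the 18 calls changed direction; of the other tested members, Adamts18, Mmp12, Mmp19 and Mmp28 changed sign under some alternative. With 1 array left out at a time, 10 to 15 members passed averaged over genotypes, 5 to 10 in WT and 2 to 9 in KI, against 18, 11 and 8 with all arrays. The fewest came without B, without WT birth replicate 2, and without KI birth replicate 2, B or C; without KI birth replicate 1, 5 passed in KI. Fitting only the arrays compared gave 7 in WT, and no filter on dim genes gave 5 in KI, where more genes shared the adjustment. Quantile normalization gave 17, normexp 17 and the mean of all probes 16 averaged over genotypes. For these settings, and with 1 array left out, the share of all genes called is not given. The counts therefore do not show whether members lost calls more than other genes did. In the genotype comparisons and in age by genotype, 0 members passed under every alternative, 0 to 0 with single arrays left out. With the scanner-file labels, KI minus WT at 1 week turned for many members, since B and D change places. Among those with the smallest p by the value table, Adamts10 (+0.095), Adamtsl2 (-0.19) and Adamts14 (+0.26) turned. Deviations of same-numbered replicates correlated at -0.14 to 0.29 between groups, which does not show whether replicate numbers pair the samples. The replicate block (value-table numbers) gave 17, 11 and 9 members for age averaged over genotypes, in WT and in KI, and 0 for genotype. Averaged over genotypes the block lost Adamtsl5 and Mmp23 and gained Adamts1, in WT it lost Adamts19 and Mmp14 and gained Mmp17 and Timp3, and in KI it gained Adamts1. With B or C alone at 1 week in KI, the lone array is assumed to vary like the other groups. Members near background (Mmp9, Mmp12, Adamts3) are limited by signal over background.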
